A study of Mus musculus with 6 samples.

Results

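DNA replication and S phase genes were examined in visceral white adipose tissue (viWAT) of obese mice with a floxed Hmox1 gene, with and without Cre in Pdgfra-expressing cells. The 32 genes were chosen by function, from the loading of the replicative helicase through nucleotide supply, DNA synthesis and the copying of chromatin to the cyclins and kinases of S phase, with earlier results of these data known. All 32 were found by gene symbol among the 19938 genes on the arrays, and 27 passed a minimum log2 intensity of 7 on at least 3 of 6 arrays and were tested among 11024 genes.

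The study set Hmox1f/f PdgfraCre mice, in which Cre driven by the Pdgfra promoter deletes the floxed Hmox1 gene for heme oxygenase-1 (HO-1), against Hmox1f/f mice without Cre. Both genotypes received a high fat diet (HFD) for 8 weeks from 6 weeks of age, and each array held 1 pool of 2 mice, with arrays 1, 2 and 3 from Hmox1f/f PdgfraCre and arrays 4, 5 and 6 from Hmox1f/f mice. The labels give the material both as bead-purified adipose precursor cells (APs) from perigonadal fat and as viWAT, and genes of mature adipocytes, such as Adipoq at log2 12.94 to 13.10 with Cre and 12.74 to 12.90 without, were high on all 6 arrays. Effects of Cre itself and of losing Hmox1 cannot be told apart, because no control had Cre, and the recombinase acts in every Pdgfra-expressing cell and not in APs alone.

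A dividing cell copies its genome once. In G1 the origin recognition complex, Cdc6 and Cdt1 load the MCM2-7 helicase onto DNA, Cdk2 with cyclin E or A then fires the loaded helicase together with Cdc45 and GINS, and polymerases tethered by the PCNA clamp copy both strands. Most of these genes are transcribed in late G1 through E2F sites in their promoters, so that their mRNAs are low in resting cells, and in fat of obese animals both APs and macrophages are known to divide.

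Levels below are log2 of the deposited normalized intensity, and a difference is the mean of the 3 Hmox1f/f PdgfraCre arrays minus the mean of the 3 Hmox1f/f arrays. Hmox1 itself was at 11.25, 11.36 and 10.74 with Cre, against 11.90, 11.63 and 12.32 without, a difference of -0.83 ± 0.21 (SE, adjusted p = 0.200, limma) with no overlap. Pdgfra was at 10.24, 10.05 and 10.23 with Cre, against 10.31, 10.36 and 10.34 in its absence (adjusted p = 0.323, limma), with no overlap. Array 1 stood apart from the rest through genes of epididymis and array 6 mainly through genes of spermatids, tissues that lie against this fat depot. The summed intensity of 4 epididymis genes was 8255, 169 and 623 on arrays 1, 2 and 3, against 181, 282 and 1925 on arrays 4, 5 and 6, and that of 5 spermatid genes was 1412, 539 and 2065, against 992, 2664 and 12286. Results are therefore also given without arrays 1 and 6. The arrays kept in that fit still carry some of these genes, such as Adam7 of epididymis at 8.93 on array 3, against 11.68 on array 1 and 7.85 on array 6.

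Most tested genes of this list, which was chosen with earlier results of these data known, were lower in Hmox1f/f PdgfraCre fat. Of the 27 tested, 24 had a negative difference, whereas 57.4% of all tested genes had one, and their median difference was -0.24 against -0.03 over all genes. In limma, 12 were lower at an unadjusted p under 0.05, against a background of 13.8%, and 0 were higher, against 3.82%. Likewise 12 had every array with Cre below every array without, against 21.2% of all genes, and 0 had the opposite, against 5.82%. Both counts of 12 include Uhrf1, which passed the minimum level through the arrays without Cre alone. Its lower values and lack of overlap were therefore fixed by its being tested. None of the 27 genes passed an adjusted p of 0.05 (adjusted p of 0.200 to 0.991, limma), and neither did any of the 11024 genes (0%). With no filter all 32 could be fitted, and 13 were lower at an unadjusted p under 0.05, against 7.50% of all genes. Among replication genes the pattern is that of the chosen list. Of 49 others given below, 16.3% were lower at that p in the main fit, near the 13.8% of all genes. Genes of mitosis shared it, with 11 of 16 lower at that p, though that count rested on arrays 1 and 6. Macrophage markers had a median difference of -0.48 over all 6 arrays, and their part in the difference of the replication genes was not tested.

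**Figure D1:**
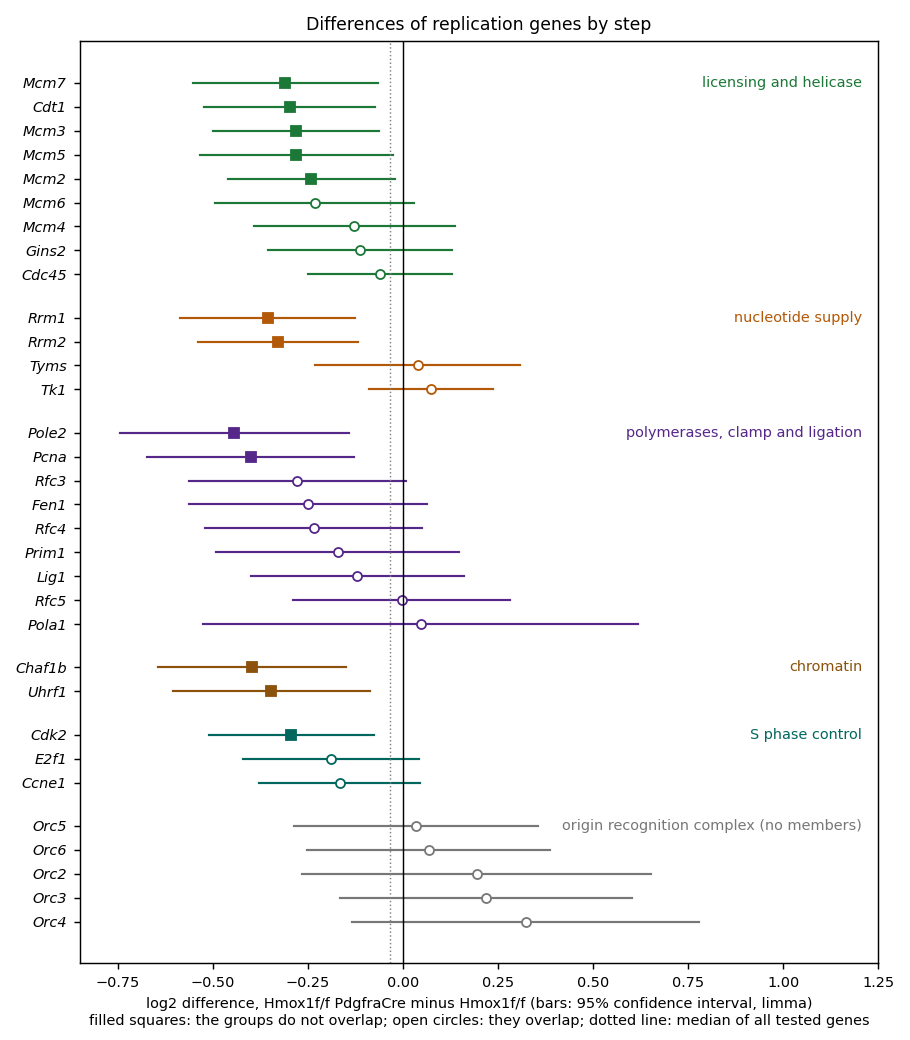
Difference in log2 intensity between Hmox1f/f PdgfraCre and Hmox1f/f (x axis) for the 27 tested replication genes, grouped by step, and for 5 subunits of the origin recognition complex, with 95% confidence intervals from limma; filled squares mark genes whose groups do not overlap. The 12 filled squares all lie to the left of 0, between -0.44 (Pole2) and -0.24 (Mcm2), whereas all 5 origin recognition genes lie to the right of it.

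The 27 genes did not differ equally on the 3 arrays with Cre. Averaged over the genes, each taken relative to its own mean over the 6 arrays, the level was -0.21, -0.02 and -0.09 on arrays 1, 2 and 3, against 0.11, 0.09 and 0.13 on arrays 4, 5 and 6. Array 1 was the lowest of the 3 with Cre for 15 genes, array 3 for 10 and array 2 for only 2. Without arrays 1 and 6 the median difference was -0.14, and 3 of 26 genes (Pole2, Rfc3 and Rrm1) were lower at an unadjusted p under 0.05, against 4.41% of all genes in that smaller fit. In the same fit 13 of 26 genes had every array with Cre below every array without, against 29.7% of all genes. Lig1 (difference 0.02) and Tk1 (0.08) had the opposite, for which no share of all genes was taken.

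The earliest step, licensing of origins and assembly of the helicase, had 12 genes, of which 9 were tested. All 9 had a negative difference, as did 57.4% of all genes, and 5 were lower at an unadjusted p under 0.05, against 13.8% of all genes, with a median of -0.24. Cdt1, which brings the helicase to origins, was at 7.84, 8.06 and 7.77 on arrays 1, 2 and 3 with Cre, against 8.18, 8.12 and 8.25 on arrays 4, 5 and 6 without. The highest array with Cre, array 2, stayed below the lowest without (difference -0.30 ± 0.10, SE, adjusted p = 0.215, limma).

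The MCM2-7 helicase is a ring of 6 related subunits that unwinds the DNA. Mcm7 was at 7.92, 8.13 and 8.14 with Cre, against 8.34, 8.26 and 8.54 without (-0.31 ± 0.10, SE, adjusted p = 0.220, limma). Mcm3 was at 8.42, 8.63 and 8.38 with Cre, against 8.83, 8.67 and 8.77 without (-0.28 ± 0.09, SE, adjusted p = 0.218, limma). Neither gene overlapped between the genotypes, although for Mcm3 array 2 came close to array 5. The same held for Mcm5 (-0.28) and Mcm2 (-0.24), whereas Mcm6 (-0.23) and Mcm4 (-0.13) had a negative difference but overlapped. All 6 subunits thus pointed the same way, with differences between -0.31 and -0.13. They did not share a lowest array: array 3 was the lowest with Cre for Mcm2, Mcm3 and Mcm5, array 1 for Mcm6 and Mcm7, and array 2 for Mcm4.

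Cdc45 and GINS are the cofactors that turn the loaded ring into a working helicase. Cdc45 differed by -0.06 and the GINS subunit Gins2 by -0.11, and both overlapped. Another 3 genes of this step were too dim to be tested. Cdc6, which loads the helicase together with Cdt1, was at 5.73, 5.93 and 5.61 with Cre, against 6.34, 5.81 and 6.30 without. Mcm10, needed to start unwinding, was at 6.81, 6.86 and 6.87 with Cre, against 6.99, 7.03 and 7.06 without, and Gins1 was at 5.86, 6.09 and 6.30 against 6.27, 6.32 and 6.36. Mcm10 did not overlap between genotypes, while Cdc6 and Gins1 did by a single array each.

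Within nucleotide supply the 4 genes split into pairs. Both main subunits of ribonucleotide reductase, the enzyme that makes deoxyribonucleotides, were lower with Cre. Rrm1, the large catalytic subunit, was at 8.53, 8.76 and 8.85 on arrays 1, 2 and 3, against 9.02, 9.11 and 9.08 on arrays 4, 5 and 6 (-0.36 ± 0.10, SE, adjusted p = 0.205, limma). Rrm2, the small subunit whose level limits the enzyme in S phase, was at 7.89, 8.13 and 7.97 with Cre, against 8.34, 8.24 and 8.40 without (-0.33 ± 0.09, SE, adjusted p = 0.201, limma). In both genes the groups did not overlap, with the smallest gap between array 2 and array 5 for Rrm2.

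For thymidylate supply the interval of the difference included 0 in both genes. Tyms, which makes thymidylate from deoxyuridylate, was at 7.63, 7.53 and 7.79 with Cre and 7.71, 7.72 and 7.41 without (0.04, 95% confidence interval -0.23 to 0.31). Tk1, the salvage kinase for thymidine, was at 8.16, 8.22 and 8.24 with Cre and 8.17, 8.13 and 8.10 without (0.07, 95% confidence interval -0.09 to 0.24). Both overlapped. A second, dimmer Tk1 probeset pointed the other way, at 7.55, 7.80 and 7.29 with Cre and 7.80, 7.75 and 7.66 without (-0.19 ± 0.13, SE, adjusted p = 0.462, limma), so that the direction of Tk1 depended on the probeset.

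Of 9 polymerase, clamp and ligation genes, all tested, 8 had a negative difference and 2 were lower at an unadjusted p under 0.05 (22.2%, against 13.8% of all genes), a count that a single gene would change. Pole2, the second subunit of the leading strand polymerase epsilon, had the largest difference among the 27 tested genes. It was at 6.75, 7.18 and 7.13 with Cre, against 7.34, 7.55 and 7.51 without (-0.44 ± 0.13, SE, adjusted p = 0.208, limma), or 0.735-fold. Pcna, the sliding clamp, was at 10.75, 11.04 and 10.61 with Cre, against 11.22, 11.15 and 11.24 without (-0.40 ± 0.12, SE, adjusted p = 0.208, limma). Neither overlapped, and for Pcna the arrays without Cre lay close together while those with Cre were spread out. The genome holds near copies of Pcna (Pcna-ps1 and Pcna-ps2) that its probes may share, so its source is uncertain, although a second Pcna probeset differed by the same -0.40.

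The remaining genes of this step overlapped between genotypes. Rfc3, a subunit of the clamp loader that opens PCNA, was at 6.78, 7.06 and 6.95 with Cre, against 7.28, 7.36 and 6.99 without, where array 6 alone was as low as the arrays with Cre (-0.28 ± 0.12, SE, adjusted p = 0.294, limma). The clamp loader subunit Rfc4 differed by -0.23, Fen1, which trims Okazaki fragments, by -0.25, the primase subunit Prim1 by -0.17 and Lig1, which seals the nicks, by -0.12. These values leaned on single arrays: without array 1 Rfc4 differed by -0.13, Prim1 by -0.02 and Lig1 by 0.01, and without array 6 Fen1 differed by -0.14. Rfc5, another clamp loader subunit, had a difference of -0.00 (95% confidence interval -0.29 to 0.28). Pola1, the catalytic subunit of polymerase alpha, was the least even gene. It was at 6.99, 7.47 and 7.91 with Cre and 7.59, 7.56 and 7.07 without, low on array 1 and on array 6 (0.05 ± 0.24, SE).

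Both genes that act on newly made chromatin were lower at an unadjusted p under 0.05, against 13.8% of all genes. Chaf1b, a subunit of the factor that places histones behind the fork, was at 7.42, 7.55 and 7.32 with Cre, against 7.88, 7.65 and 7.95 without (-0.40 ± 0.11, SE, adjusted p = 0.200, limma), the smallest p of the 27 genes. Uhrf1, which brings DNA methyltransferase to half-methylated DNA, was at 6.88, 6.93 and 6.81 with Cre, against 7.04, 7.18 and 7.43 without (-0.35 ± 0.11, SE, adjusted p = 0.215, limma). All 3 arrays with Cre were below those without for both genes. Uhrf1 passed the minimum level through the arrays without Cre alone, so that it had to differ to be tested.

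Among 5 genes that drive entry into S phase, 3 could be tested and all 3 had a negative difference. Cdk2, the S phase kinase, was at 8.74, 8.82 and 8.84 with Cre, against 8.97, 9.06 and 9.25 without, with no overlap (-0.29 ± 0.09, SE, adjusted p = 0.211, limma). E2f1, an activating E2F factor, was at 7.61, 7.83 and 7.59 with Cre, against 7.83, 7.77 and 7.99 without (-0.19 ± 0.10, SE, adjusted p = 0.351, limma), and Ccne1, cyclin E1, at 7.88, 8.13 and 8.01 with Cre, against 8.10, 8.19 and 8.23 without (-0.17 ± 0.09, SE, adjusted p = 0.367, limma). In E2f1 and Ccne1 array 2 reached the arrays without Cre, and the groups overlapped. Ccne2, cyclin E2, and Clspn, a mediator of the replication checkpoint, were below the minimum level on every array. Ccne2 was at 5.86, 6.07 and 6.86 with Cre and 6.36, 6.78 and 6.57 without, and Clspn was at 6.44, 6.60 and 6.67 with Cre and 6.70, 6.54 and 6.81 without, with overlap in both.

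**Figure D2:**
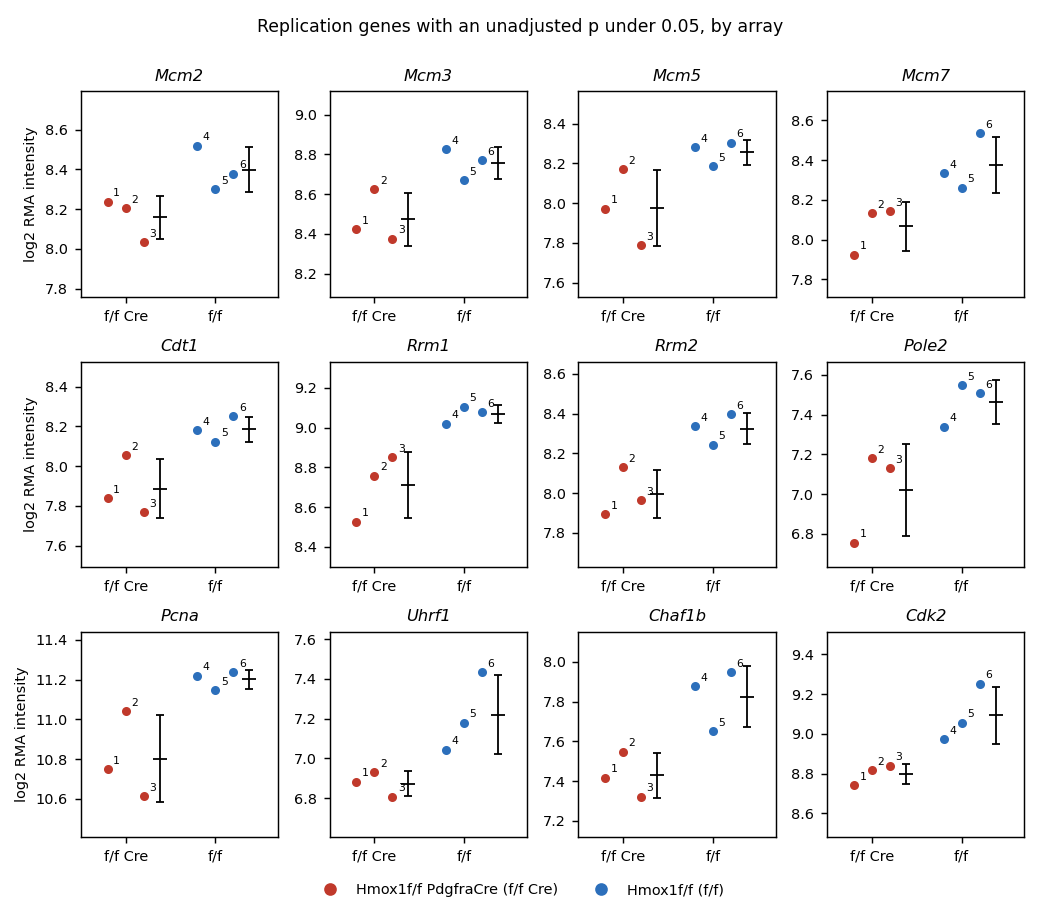
Log2 RMA intensity (y axis, the same span in each panel) on each array of the 12 replication genes with an unadjusted p under 0.05, with Hmox1f/f PdgfraCre arrays 1 to 3 on the left and Hmox1f/f arrays 4 to 6 on the right of each panel; bars give the mean and SD of 3 arrays. The groups are separate in every panel, with array 2 nearest to the Hmox1f/f arrays for Mcm3, Mcm5 and Pcna. For Uhrf1 the separation was fixed by the minimum level.

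Since these genes are known as E2F targets, their promoters were searched in windows from 250 bases before to 50 bases after each start, taken from the RefSeq table of build GRCm38.p6, in which 28 of the 32 genes had a window (Mcm4, Gins1, Gins2 and Ccne2 did not). The 4 E2F words searched were TTTCCCGC, TTTCGCGC, TTTGGCGC and TTTGCCGC on both strands. They occurred in 13 of 28 genes (46.4%), against 2.60% of all 27025 genes with a window. The 6 genes with values on every array given above, an E2F word and the smallest p are printed here, with the word in capitals and at most 30 bases where a stretch runs past the start, to show what the shared element looks like.
Pole2, chr12:69228162-69228191, minus strand: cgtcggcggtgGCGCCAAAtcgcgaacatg
Cdk2, chr10:128705159-128705216, minus strand: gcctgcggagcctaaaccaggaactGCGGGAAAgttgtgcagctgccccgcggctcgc
Uhrf1, chr17:56304103-56304160, plus strand: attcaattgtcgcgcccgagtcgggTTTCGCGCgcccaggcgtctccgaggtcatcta
Cdt1, chr8:122568035-122568064, plus strand: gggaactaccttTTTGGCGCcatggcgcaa
Mcm3, chr1:20820265-20820294, minus strand: gGCGGGAAAacttgggaagtTTTGGCGCca
Mcm7, distal, chr5:138172016-138172073, minus strand: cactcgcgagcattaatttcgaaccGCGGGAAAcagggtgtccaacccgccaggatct
Mcm7, proximal, chr5:138171849-138171878, minus strand: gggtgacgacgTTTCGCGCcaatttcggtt

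Sites lay on both sides of the start. Those of Cdk2 and Uhrf1 began at -140 and -185 relative to it, those of Pole2 and Cdt1 at 11 and 33, and Mcm3 and Mcm7 carried a pair each, at 20 and 39 and at -165 and 17. The other genes with a word were Mcm5, Mcm6, Cdc6, Clspn, Lig1, Pola1 and Rfc3, and in Mcm5 and Mcm6 words on opposite strands overlapped each other. The proximal site of Mcm7 runs into a CCAAT box, the element bound by NF-Y, which was found on either strand in 16 of the 28 genes (57.1%) and in 41.1% of all genes. TTTGAA, the core of the element found in many G2 and mitotic promoters, was found in 3 of 28 (10.7%) and in 20.2% of all genes. A word match is a description of the sequence and not a shown binding site.

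**Figure D3:**
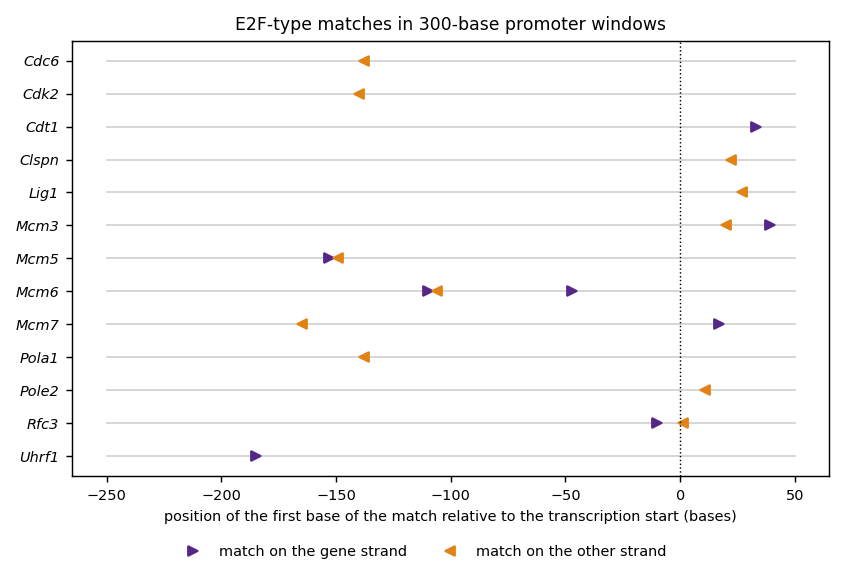
Position of E2F words (x axis, bases from the transcription start) in the 300-base promoter windows of the 13 replication genes that hold one, with the direction of each triangle giving the strand. Among the 19 words, Mcm5 and Mcm6 each have an overlapping pair upstream of the start, Mcm6 has a further word nearer to it, and those of Cdt1, Clspn, Lig1, Mcm3 and Pole2 lie downstream of the start.

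Genes with and without a word were both among those with a lower level. Of the 11 tested genes with a word, 7 were lower at an unadjusted p under 0.05, with a median difference of -0.28. The 7 include Uhrf1, which had to be lower to be tested. Of 14 with a window and no word, 5 were lower at that p, with a median of -0.21. Among all tested genes 13.8% were lower at that p, and the median difference was -0.03. Pola1, Lig1, Mcm6 and Rfc3, which overlapped between genotypes, carried a word. Pcna, Chaf1b, Rrm1, Rrm2 and Mcm2, which did not overlap, carried none of the 4 words in this window.

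A wider list held 59 other replication genes, of which 49 were tested. Of these, 34 had a negative difference (69.4%, against 57.4% of all genes), and the median was -0.12. At an unadjusted p under 0.05, 8 were lower (16.3%, near the 13.8% of all genes) and 0 were higher. The 8 became 5 without array 1 (9.09% of all genes), 4 without array 5 (11.2% of all genes) and 2 of 48 without arrays 1 and 6 (4.41% of all genes), so that the share called was near that of all genes in each of these fits. The smallest p belonged to Pold3, an accessory subunit of the lagging strand polymerase delta, at 8.39, 8.54 and 8.42 with Cre, against 8.78, 8.77 and 9.01 without (-0.40 ± 0.09, SE, adjusted p = 0.200, limma). It was followed by Dck, the deoxycytidine salvage kinase (-0.29), the clamp loader subunit Rfc2 (-0.30), the histone chaperone Asf1b (-0.34), cyclin A2 (Ccna2, -0.29) and the primase subunit Prim2 (-0.29). None of these 6 overlapped between genotypes, which follows largely from their being picked by p, and each had array 1 or 2 as the lowest. Over the whole wider list 11 of 49 did not overlap (22.4%, near the 21.2% of all genes).

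Subunits of one complex were set side by side after their values had been seen, and they did not all point the same way. In polymerase delta all 4 subunits had a negative difference, between -0.40 and -0.12. In polymerase epsilon Pole2 stood alone, and the other 3 subunits lay between -0.07 and 0.02. In the clamp loader Rfc2, Rfc3 and Rfc4 lay between -0.30 and -0.23, and Rfc5 and Rfc1 at -0.00 and 0.06. The origin recognition complex had the opposite sign to the helicase it loads, a contrast that was not tested. All 5 tested subunits had a positive difference, as did 4697 of the 11024 tested genes. Their differences lay between 0.03 and 0.32 with a median of 0.19, and all 5 overlapped. Each of these 5 genes was highest on array 3, such as Orc2 at 8.39, 8.49 and 9.14 with Cre and 8.42, 8.62 and 8.40 without. Orc4 was at 8.54, 8.88 and 9.20 with Cre and 8.52, 8.83 and 8.30 without (0.32, 95% confidence interval -0.13 to 0.78). Without array 3 its difference was 0.16. Similarly Rrm2b, the p53-induced small subunit that serves ribonucleotide reductase outside S phase, was at 7.92, 8.01 and 8.21 with Cre, against 7.82, 7.92 and 7.71 without (0.23 ± 0.10, SE, adjusted p = 0.300, limma), whereas Rrm1 and Rrm2 were lower.

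Genes of mitosis, the phase after replication, also had negative differences. Of 16 tested, all 16 had a negative difference and 11 were lower at an unadjusted p under 0.05, against 13.8% of all genes, with a median of -0.30. This count rested on the arrays that stood apart: it was 3 without array 1 (9.09% of all genes), 4 without array 6 (8.15% of all genes) and 0 without both (4.41% of all genes). The 2 common markers of dividing cells were not among the 11. Mki67 was at 8.75, 9.12 and 9.38 with Cre and 9.30, 9.14 and 9.06 without (-0.08, 95% confidence interval -0.45 to 0.29). Top2a was at 7.74, 8.22 and 8.52 with Cre and 8.53, 8.42 and 8.43 without (-0.30, 95% confidence interval -0.73 to 0.13), and its difference was -0.09 without array 1 and -0.48 without array 3. Both were low on array 1 and high on array 3 among the arrays with Cre, and overlapped. The mitosis list as a whole had array means of -0.37, -0.05 and -0.03 with Cre, against 0.12, 0.08 and 0.24 without, so that array 1 stood lowest.

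Markers of other cells differed between the genotypes as well. All 12 macrophage markers had a negative difference, against 57.4% of all genes, with a median of -0.48. Of these 12, 11 did not overlap, against 21.2% of all genes lower without overlap. Their summed intensity was 34701, 41726 and 29963 with Cre, against 46888, 46418 and 48861 without. All 12 were above the minimum level on every array. Array 2, which had the highest macrophage sum with Cre, was also the array on which the 27 replication genes were nearest to the controls. The order of the other arrays with Cre differed, since macrophage markers were lowest on array 3 and replication genes on array 1. All 6 endothelial markers were higher with Cre without overlap, against 5.82% of all genes, with sums of 7232, 6630 and 7816 against 5985, 5634 and 4781. All 8 adipocyte markers had a positive difference, as did 4697 of the 11024 tested genes, and 2 did not overlap. The adipocyte sums were 61349, 62509 and 67457 with Cre against 57828, 60682 and 54862 without. The sums of 8 AP markers were 19719, 20131 and 21115 with Cre and 21628, 21490 and 20651 without. Dcn, the brightest of the 8, differed by 0.02. Of the 8, 6 had a negative difference, and Pdgfra, Pi16 and Col3a1 were lower without overlap (37.5%, against 21.2% of all genes). Pi16 passed the minimum level through the arrays without Cre alone. Of 4 lymphocyte markers 3 stayed below the minimum level on every array. In RNA of a mixed tissue fewer dividing cells and less of each mRNA per cell cannot be told apart.

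**Figure D4:**
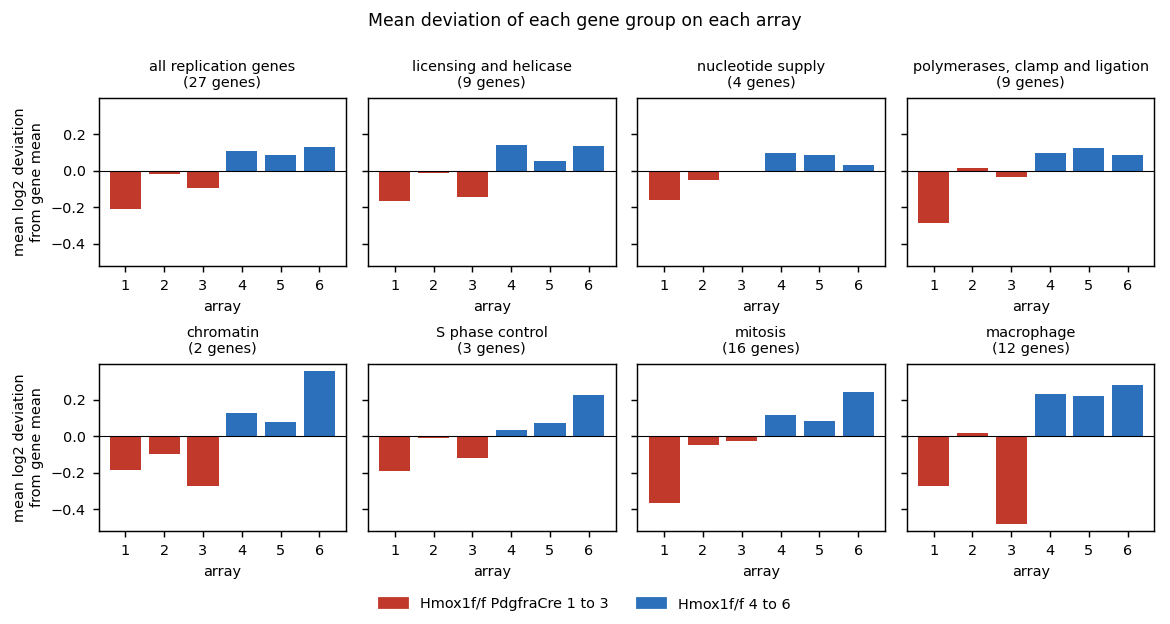
Mean log2 deviation from each gene's own mean (y axis) on Hmox1f/f PdgfraCre arrays 1 to 3 and Hmox1f/f arrays 4 to 6 (x axis), for all 27 tested replication genes, for each step, and for the mitosis and macrophage lists. Replication genes sat at -0.21, -0.02 and -0.09 on arrays 1 to 3 and above 0 on arrays 4 to 6, and array 2 was the nearest to 0 of arrays 1 to 3 for the licensing genes, the polymerase genes and the macrophage markers.

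The steps differed in which array carried them. Licensing and helicase genes averaged -0.17, -0.01 and -0.14 on arrays 1, 2 and 3, so that arrays 1 and 3 were alike, and 0.14, 0.05 and 0.13 on arrays 4, 5 and 6. Polymerase, clamp and ligation genes averaged -0.28, 0.01 and -0.04 with Cre, with array 1 well below the other arrays, and 0.10, 0.13 and 0.09 without. Without array 1 the median difference of the polymerase step was -0.13 in place of -0.23. Chromatin genes were below 0 on all 3 arrays with Cre, at -0.19, -0.10 and -0.27, against 0.12, 0.08 and 0.35 without. Within a genotype the arrays of a replication gene had a median SD of 0.14, against 0.12 over all tested genes.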

How the data were processed

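RNA from 3 pools per genotype (200 ng each) was labelled and measured on Affymetrix mouse arrays, 1 array per pool. The deposited values are linear intensity values per probeset, from 8 to 20701, made by the authors with RMA in Affymetrix Expression Console 1.1 according to the submitters' processing notes. RMA makes the distributions of arrays alike, which hides a change common to most genes. Log2 was taken, and of 35556 probesets those with 1 symbol were kept, the brightest per gene. Genes above log2 7 on at least 3 arrays were tested with limma 3.58.1 in R 4.3.3 (lmFit and eBayes, two-sided, genotype as the only term, all 6 arrays), with Benjamini-Hochberg adjustment over 11024 genes. The number of arrays limits the precision: an exact permutation test of 3 against 3 cannot go below p = 0.1. The code was tested on simulated data, and plots were made in matplotlib 3.10.9.

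The genes, lists and tests were chosen with earlier results of these data known. Array values are given for the 3 genes of each step with the smallest p (2 for chromatin), genes with a positive difference, Hmox1, Pdgfra, Mki67 and Top2a, and differences for up to 6 genes of the wider list by p. Array values of Pold3, Adipoq, Orc4, Rrm2b and the untested genes, the other genes named and the grouping by complex were added after values had been seen. Alternatives were other filters (among them that of the study's methods, which also keeps only the most variable genes), normalizations, moderation, array weights, probesets and left-out arrays.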

Additional observations from a re-analysis of the deposited data

How the results depend on the processing

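No replication gene passed an adjusted p of 0.05 (limma) in the main setting or in any of 17 alternatives. These count the other Tk1 probeset, which was recorded for Tk1 alone. The number lower at an unadjusted p under 0.05 was 12 in the main setting (13.8% of all genes) and 9 to 15 when 1 array was left out (median difference -0.28 to -0.18). It was 9 without array 1 (9.09% of all genes), array 4 (9.08%) or array 6 (8.15%), and 15 without array 2 (14.7%). It was 3 under the methods' filter, which left 15 of the genes among 3351 (13.6% of all genes lower at that p), although their differences were unchanged by construction, their median was -0.30 and 11 did not overlap (26.5% of all genes). It was 3 without arrays 1 and 6 (4.41% of all genes), where the median difference was -0.14. Counts of the wider list (8) were 1 under the methods' filter, 5 after centring, 2 without arrays 1 and 6 and 4 to 10 with an array left out. Those of the mitosis list (11) were 3, 10, 0 and 3 to 12. Of all genes, 13.6%, 11.3%, 4.41% and 8.15% to 14.7% were lower at that p in the same fits. The refits of these 2 lists were added after seeing the data. Step medians moved by more than the spread in nucleotide supply, chromatin, polymerases and S phase control. The spread was 0.0704, the within-group SD of the array means of the replication genes. Under the methods' filter nucleotide supply was at -0.342 with 2 genes left, and S phase control at -0.294 with 1. Chromatin was at -0.297 with array weights and -0.484 to -0.328 with an array left out, where -0.484 is Chaf1b alone. Polymerases were at -0.0842 without arrays 1 and 6 (-0.285 to -0.134 with an array left out). S phase control was at -0.0943 without arrays 1 and 6 (-0.264 to -0.139 with an array left out). The differences of single replication genes kept their sign in 394 of 412 refits. Refits that changed only the filter or the moderation left each difference as it was, so that their signs were fixed in advance. The sign turned for 6 genes near 0. Rfc5 was at 0.025 after a further quantile normalization, 0.0145 after centring and 0.0978 with array weights (-0.11 to 0.105 with an array left out), Tyms at -0.0622 with array weights and -0.0513 without arrays 1 and 6 (-0.0625 to 0.0993), Pola1 at -0.24 with array weights (-0.18 to 0.28), Lig1 at 0.0163 and Cdc45 at 0.0134 without arrays 1 and 6 (Lig1 -0.19 to 0.0149 with an array left out), and Tk1 at -0.0573 with the mean of its probesets and -0.19 with the other probeset, an alternative chosen after seeing the data. Mki67 was at 0.0311 without arrays 1 and 6 and -0.226 to 0.085 with an array left out. Of all genes at an unadjusted p under 0.05, 78.3% were lower with Cre, against 57.3% after the further quantile normalization, where 10 of 26 replication genes were lower at that p against 9.07% of all genes. No paired analysis was possible because the genotypes share no replicate number. The causes were not tested.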
